A study of Mus musculus with 14 samples.

Results

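Transcripts of cathepsin E and of 7 further cathepsins were followed through 4 groups of sorted mouse lung ILC2s (type 2 innate lymphoid cells). The 8 genes, Ctse, Ctsb, Ctsc, Ctsd, Ctsl, Ctss, Ctsw and Ctsz, were taken by symbol from the 53278 genes of the count and TPM tables, and each was found in every table. Ctse was chosen by its CPM in the Blimp-1 experiment, where it was known to be much lower in the Blimp-1-deficient libraries, so its difference in that comparison is given as a description without a test. The other 7 genes were asked whether they followed.

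Cathepsins are proteases that work mainly in the acid interior of endosomes and lysosomes, where they degrade proteins and trim or activate other enzymes. Cathepsins B, C, L, S, W and Z are cysteine proteases, whereas cathepsins D and E are aspartic proteases, D being a housekeeping lysosomal enzyme and E an endosomal enzyme found mostly in immune and epithelial cells. ILC2s are tissue lymphocytes that answer the alarmins IL-33 and IL-25 with type 2 cytokines, and Blimp-1, encoded by Prdm1, is a transcriptional repressor.

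In the stimulation experiment, 4 unstimulated libraries were compared with 4 IL-33 stimulated libraries, all from female B6 mice. The stimulated cells had received IL-33 at 20 ng/mL for 24 h, and the unstimulated cells none. By the methods both groups were cultured, but the study's results speak of unstimulated cells taken directly from the lung, and the labels give those samples no culture time, so IL-33 and the culture itself cannot be told apart with certainty in this comparison. In the Blimp-1 experiment, 3 Control libraries (genotype ControlIL7RaCre) were compared with 3 Blimp-1-deficient libraries (genotype Blimp-1IL7RaCre) from age-matched females, and all 6 cultures had received IL-33 and IL-25 at 20 ng/mL each for 72 h. The study's methods add IL-2 to that culture. Both genotype labels name a Cre under Il7r control. By the study, this Cre reaches beyond ILC2s, so floxed Blimp-1 is also lost from other ILCs, NK cells and B and T lymphocytes. The series describes individual mice, whereas figure legends of the study speak of sorting samples from pooled animals, so a library may hold more than 1 mouse, and p-values measure the spread between these libraries.

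Libraries held 10470125 to 76448945 counts, and 2 of them stood apart. Control replicate 2 had 76.8% of its counts on 7 loci and 3150795 counts elsewhere, so that 3 counts were worth 0.731 CPM (counts scaled to a normalised library total of 1e+06) there against at most 0.296 in any other library. IL-33 stimulated replicate 3 had the lowest total of all 14 libraries. Fold changes of the 8 genes are therefore given with and without these libraries. All 14 ILC2 marker genes examined were above 3 counts in every library. By the study's methods the sort took live, lineage-negative, CD90.2+ CD3- cells, a gate that should remove T cells and lineage-positive cells. Genes of other cells were nevertheless found: the summed CPM of a T cell list was 51.3 to 64.7 in unstimulated and 14.2 to 27.9 in stimulated libraries, and that of a macrophage, monocyte and dendritic cell list 103 to 241 and 51.1 to 147. Of 4 epithelial genes Epcam was at 52.4 to 69.5 CPM in unstimulated and 2.27 to 3.55 CPM in stimulated libraries, Scgb1a1 reached 18.7 CPM in 1 unstimulated library, and Sftpc and Sftpa1 were at or near 0. Mast cell and basophil genes summed to 7.12 to 14.7 CPM in unstimulated libraries, most of it Cpa3, and to at most 0.985 CPM in stimulated ones. In bulk RNA, fewer cells of a type and less RNA per cell cannot be told apart. Prdm1 itself checked the genotype labels, with 75.2, 92.8 and 74.0 CPM in the Controls against 14.6, 11.5 and 11.4 CPM with Blimp-1 deleted (log2 fold change -2.68, edgeR adjusted p = 0.00441).

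Ctse lies on chromosome 1 (ENSMUSG00000004552.16, GRCm38 chr1:131638306-131675505, plus strand), and none of its exon bases is shared with another annotated gene. In the unstimulated libraries it was measured at 11.6, 12.0, 12.96 and 11.2 CPM, and after IL-33 at 4.86, 4.96, 5.81 and 5.34 CPM. The groups did not overlap, and every stimulated library lay below every unstimulated one. The mean fell 2.28-fold, from 11.9 ± 0.77 to 5.24 ± 0.432 CPM (SD, n = 4 and 4), with a log2 fold change of -1.19 (SE 0.14, edgeR adjusted p = 0.000508). Without stimulated replicate 3 the log2 fold change was -1.24 (edgeR adjusted p = 7.89e-06).

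In the Blimp-1 experiment Ctse stood at 73.1, 44.3 and 57.5 CPM in the Controls and at 3.95, 3.91 and 3.61 CPM in the Blimp-1-deficient libraries. The lowest Control, replicate 2, rested on 182 counts, and each Blimp-1-deficient library on 303 to 349. These values, which chose the gene, differ by -3.94 on the log2 scale (SE 0.20), and by -4.09 (SE 0.12) without Control replicate 2. On the per-length TPM scale the remaining Controls held 86.5 and 70.9 TPM against 4.45 to 5.34 TPM in the Blimp-1-deficient libraries. The 2 experiments were counted and normalised as separate tables and differ in mice, cytokines and hours, so their levels stand side by side only.

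**Figure D1:**
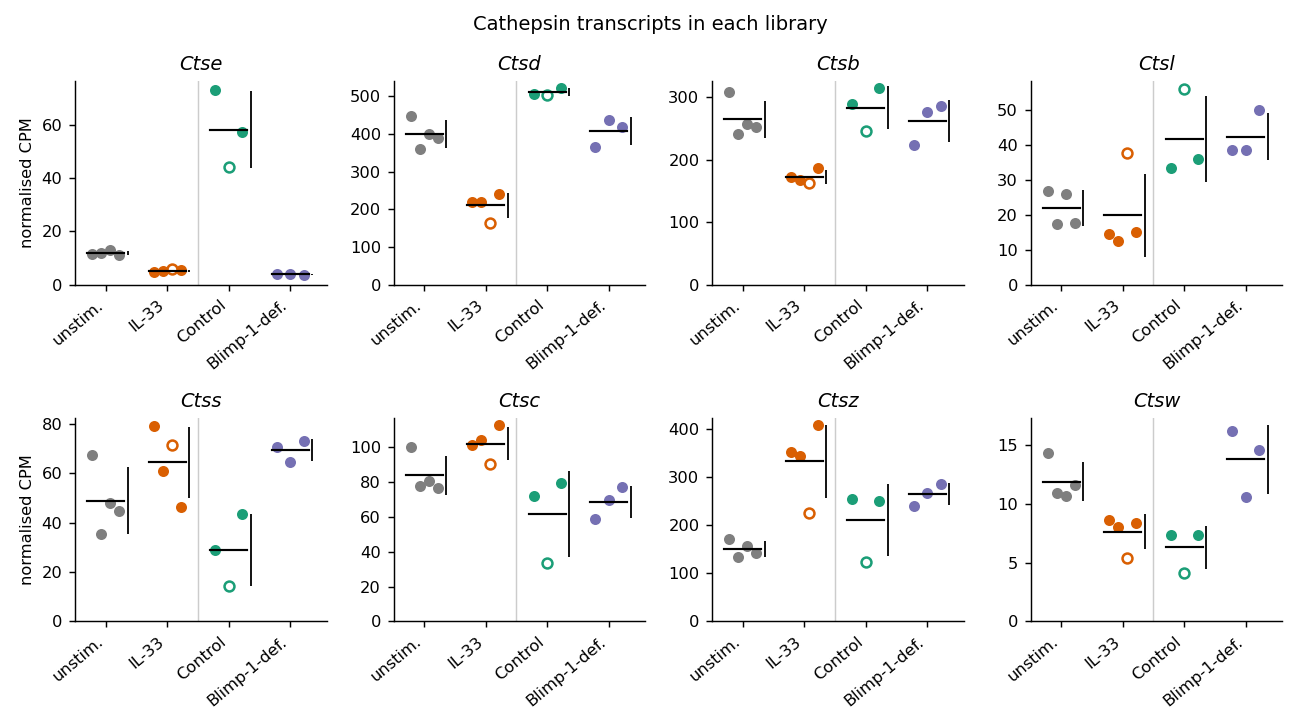
Normalised CPM of each cathepsin (vertical axes, linear, from 0) in the 4 groups, with 1 point per library, the group mean as a horizontal bar and ±1 SD as the vertical line beside it; open points are IL-33 stimulated replicate 3 and Control replicate 2, and the grey line separates the experiments. Ctse is low in all 3 Blimp-1-deficient libraries (3.61 to 3.95 CPM), whereas Ctss and Ctsw are above every Control there.

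After IL-33, 1 of the 8 cathepsins rose (Ctsz) and 4 fell (Ctse, Ctsd, Ctsb and Ctsw), while 32.3% of the 15466 genes tested were called, 16.2% higher and 16.1% lower. The same 5 genes had groups that did not overlap, as had 37.9% of all genes tested, 17% higher and 20.9% lower. Without stimulated replicate 3, 2 rose and 5 fell, where 57.2% of 15733 genes were called, 27.5% higher and 29.7% lower. Those 7 did not overlap either, as was so for 58.6% of all genes, 28.6% higher and 30% lower. The median log2 fold change of the 8 was -0.38, that of all genes 0.06.

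Of the aspartic proteases, Ctsd (ENSMUSG00000007891.16, chr7:142375911-142388038, minus strand) held 448, 359, 400 and 389 CPM in the unstimulated and 220, 219, 163 and 239 CPM in the stimulated libraries. The groups were well separated, and the mean fell 1.90-fold from 399 ± 36.8 to 210 ± 33.2 CPM (SD, n = 4 and 4). The log2 fold change was -0.92 (SE 0.13, edgeR adjusted p = 0.00106), and -0.82 without stimulated replicate 3 (edgeR adjusted p = 1.15e-05). In the GENCODE M21 annotation 34.4% of its exon bases lie under Gm49369 on the same strand, a gene with no entry under that symbol in the deposited counts.

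Ctsz (ENSMUSG00000016256.10, chr2:174427493-174439039, minus strand), a carboxypeptidase of the cysteine class, moved the other way. It was measured at 172, 134, 157 and 143 CPM without stimulation and at 352, 346, 226 and 409 CPM with it. The lowest stimulated value belonged to replicate 3 and still lay above every unstimulated one. The mean rose 2.20-fold, from 151 ± 16.5 to 333 ± 76.9 CPM (SD, n = 4 and 4), with a log2 fold change of 1.14 (SE 0.18, edgeR adjusted p = 0.00184), and of 1.29 without stimulated replicate 3 (edgeR adjusted p = 1.74e-06).

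The proximal promoters of Ctsd and Ctsz, which moved in opposite directions after IL-33, and of Ctss, whose genotype difference below was called by edgeR without Control replicate 2 and not with all 6 libraries, are shown to set their short motifs side by side. They are RefSeq windows on GRCm38.p6 of 300 bases, from 250 before to 50 after the RefSeq start, written along the gene's strand. For Ctsd and Ctsl this start lies inside the GENCODE span of the gene, not at its edge. Capitals mark CACGTG, the E-box core bound by TFEB and TFE3, and GAAAGT, a core of the Blimp-1 motif, or its reverse complement. The windows are chr7:142387778-142388077 on the minus strand for Ctsd, chr2:174438990-174439289 on the minus strand for Ctsz and chr3:95526536-95526835 on the plus strand for Ctss.
Ctsd: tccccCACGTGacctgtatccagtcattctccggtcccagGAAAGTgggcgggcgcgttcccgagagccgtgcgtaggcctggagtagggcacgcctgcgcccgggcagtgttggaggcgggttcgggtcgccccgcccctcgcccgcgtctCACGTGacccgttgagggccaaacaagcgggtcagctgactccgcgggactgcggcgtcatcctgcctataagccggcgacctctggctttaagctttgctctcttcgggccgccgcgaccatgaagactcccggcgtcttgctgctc
Ctsz: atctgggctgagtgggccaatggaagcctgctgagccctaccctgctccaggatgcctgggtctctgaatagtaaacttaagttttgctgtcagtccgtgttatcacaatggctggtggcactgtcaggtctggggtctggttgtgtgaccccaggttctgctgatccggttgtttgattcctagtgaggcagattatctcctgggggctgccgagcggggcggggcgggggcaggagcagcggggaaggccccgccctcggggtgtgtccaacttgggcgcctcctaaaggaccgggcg
Ctss: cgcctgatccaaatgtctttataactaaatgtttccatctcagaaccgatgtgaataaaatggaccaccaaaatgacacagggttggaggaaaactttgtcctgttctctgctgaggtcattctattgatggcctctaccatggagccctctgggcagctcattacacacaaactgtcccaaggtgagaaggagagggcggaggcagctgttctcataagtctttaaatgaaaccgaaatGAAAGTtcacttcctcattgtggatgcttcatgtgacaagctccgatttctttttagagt
CACGTG occurred 2 times in the Ctsd window, from bases 6 and 153, and in neither other. GAAAGT occurred 1 time in Ctsd, from base 41, and 1 time in Ctss, from base 241, and not in Ctsz. The table held windows for 5 of the 8 genes. The Ctsl window had 1 CACGTG and 1 GAAAGT, and the Ctsc window 1 GAAAGT and no CACGTG. Of the 32851 promoter windows in the table, 7.15% held CACGTG and 14.3% GAAAGT on either strand; the letters of these motifs do not overlap. A match describes the sequence and is not a measured binding site.

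Ctsb (ENSMUSG00000021939.8, chr14:63122462-63145923, plus strand), a broadly expressed lysosomal endo- and exopeptidase, read 308, 242, 257 and 251 CPM in the unstimulated libraries. In the stimulated ones it read 172, 167, 163 and 187 CPM, all lower. The mean fell 1.53-fold, from 264 ± 29.6 to 172 ± 10.5 CPM (SD, n = 4 and 4), with a log2 fold change of -0.62 (SE 0.09, edgeR adjusted p = 0.00138), and of -0.59 without stimulated replicate 3 (edgeR adjusted p = 0.000241). Its exons share 12.8% of their bases with Fdft1 on the opposite strand. Whether counting used strand is not given in the sources used here, so reads from such overlaps cannot be told apart.

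Ctsw (ENSMUSG00000024910.5, chr19:5465043-5468507, minus strand), a cathepsin best known from cytotoxic T and NK cells, was low throughout. It held 14.4, 10.9, 10.7 and 11.6 CPM in unstimulated and 8.67, 8.00, 5.42 and 8.39 CPM in stimulated libraries. These groups did not overlap, and the log2 fold change was -0.64 (SE 0.20, edgeR adjusted p = 0.0376). The call lay near the threshold: of 8 fits that each left out 1 library the one without stimulated replicate 3 kept it (edgeR adjusted p = 0.00621), and the other 7 gave edgeR adjusted p from 0.0563 to 0.0815, while the log2 fold change stayed between -0.49 and -0.71 in all 8. The replicate number as a block also ended it (log2 fold change -0.66, edgeR adjusted p = 0.0608). Fewer T cell transcripts were found in the same libraries, with the T cell list above, and NK cell genes summed to 0.69 to 3.63 CPM after and 2.80 to 3.40 CPM before stimulation; their part in the Ctsw values was not tested.

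Ctsl (ENSMUSG00000021477.9, chr13:64359337-64370890, minus strand), a lysosomal endopeptidase, depended on the same stimulated library. It was measured at 26.8, 17.3, 25.9 and 17.6 CPM without IL-33 and at 14.6, 12.4, 37.7 and 15.1 CPM with it. Replicate 3 lay above all unstimulated libraries, and the other 3 below them. With all libraries the log2 fold change was -0.14 (SE 0.37, edgeR adjusted p = 0.792), and without replicate 3 it was -0.64 (SE 0.17, edgeR adjusted p = 0.00990). In replicate 3, Csf1r, a receptor gene of macrophages picked after its values were seen, was at 27.2 CPM, whereas it reached at most 2.17 CPM in the other stimulated libraries. The list as a whole did not set replicate 3 apart, with a sum of 147 CPM against 136 CPM in replicate 1, and Lyz2 was lower in replicate 3, at 72.7 against 80.2 CPM. Control replicate 2, the highest Control for Ctsl at 56.0 CPM, also had the highest Csf1r of its experiment, 3.65 CPM from 15 counts, against 0.555 to 1.73 CPM in the others. Its list sum of 111 CPM and its Lyz2 of 43.1 CPM lay below the 150 and 92.0 CPM of Control replicate 3, where Ctsl was at 36.1 CPM. The part of such cells in Ctsl was not tested. Of its exon bases, 26.8% lie opposite Gm47123, an antisense gene with no entry under that symbol in the deposited counts.

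Ctsc (ENSMUSG00000030560.17, chr7:88278085-88310888, plus strand), the dipeptidyl peptidase that activates granule serine proteases, differed little. It held 100, 78.0, 80.9 and 76.5 CPM before and 101, 104, 90.4 and 113 CPM after stimulation. The groups overlapped, because unstimulated replicate 1 reached the stimulated range. The log2 fold change was 0.29 (SE 0.11, edgeR adjusted p = 0.0786). Without stimulated replicate 3 it was 0.34 (edgeR adjusted p = 0.0108), and without unstimulated replicate 1 it was 0.44 (edgeR adjusted p = 0.00203). On log2(TPM + 1), a scale on which the median of all genes was itself -0.25, it was -0.04 (limma adjusted p = 0.796).

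Ctss (ENSMUSG00000038642.10, chr3:95526786-95556403, plus strand), the protease that removes the invariant chain from class II molecules, read 67.6, 35.4, 47.9 and 44.7 CPM in the unstimulated and 79.3, 60.8, 71.3 and 46.2 CPM in the stimulated libraries. The ranges overlapped, and the log2 fold change was 0.40 (SE 0.23, edgeR adjusted p = 0.207), 0.35 without stimulated replicate 3 (edgeR adjusted p = 0.199) and 0.66 without unstimulated replicate 1 (edgeR adjusted p = 0.0642). The highest unstimulated library for Ctss also had the highest sum of the macrophage, monocyte and dendritic cell list, 241 CPM against 103 to 129 CPM, with Lyz2 leading at 161 CPM. Among stimulated libraries the 2 highest for Ctss, replicates 1 and 3, had sums of 136 and 147 CPM, and the other 2 had 69.8 and 51.1 CPM. The part of these transcripts in Ctss was not tested.

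**Figure D2:**
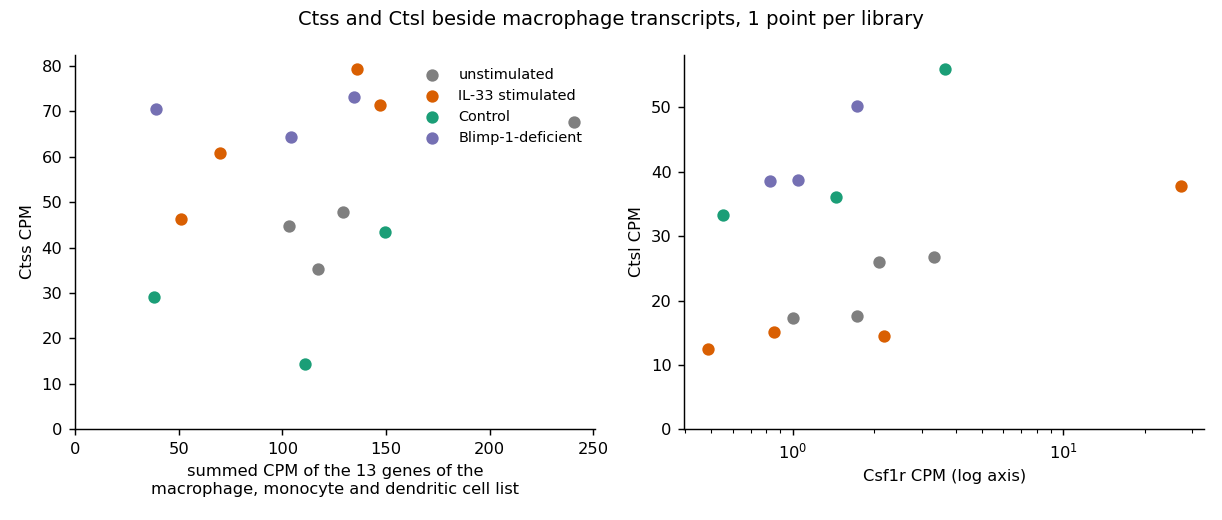
Left, Ctss CPM against the summed CPM of 13 macrophage, monocyte and dendritic cell genes; right, Ctsl CPM against Csf1r CPM on a log axis; each point is 1 library coloured by group. The unstimulated library with the highest list sum (241 CPM) is the highest of its group for Ctss, and the stimulated library at 27.2 CPM of Csf1r and the Control at 3.65 CPM are the highest of their groups for Ctsl.

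The make-up of the 8 cathepsins is read on TPM, which is scaled by the gene length given with the counts. In unstimulated libraries Ctsd led with 586 ± 38.0 TPM (SD, n = 4), followed by Ctsz with 363 ± 30.04, Ctsb with 151 ± 11.6 and Ctss with 124 ± 29.99 TPM. The ranges of Ctsb and Ctss over libraries, 140 to 167 and 91.2 to 164 TPM, overlapped, although Ctsb was the higher within each of the 4 libraries. Ctsc followed with 49.8 ± 4.70 and Ctsw with 33.4 ± 3.58 TPM, and Ctse and Ctsl closed the order with overlapping levels of 13.04 ± 1.015 and 11.6 ± 2.49 TPM.

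After IL-33 the first and second places were exchanged. Ctsz held 639 ± 156 TPM and Ctsd 247 ± 44.2 TPM (SD, n = 4), with no overlap, and Ctss at 131 ± 32.3 TPM then ranked above Ctsb at 78.4 ± 5.59 TPM. Ctsd went from 42.6% to 44.9% of the summed TPM of the 8 genes in unstimulated libraries to 20.7% to 21.5% in stimulated ones. Ctsz went from 26.7% to 28.1% to 47.1% to 59.0%. The sum itself was 1192 to 1469 TPM before stimulation, and 872 TPM in replicate 3 and 1229 to 1313 TPM in the other libraries after it. Ctse came last in all 4 stimulated libraries, with 4.43 to 4.80 TPM.

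**Figure D3:**
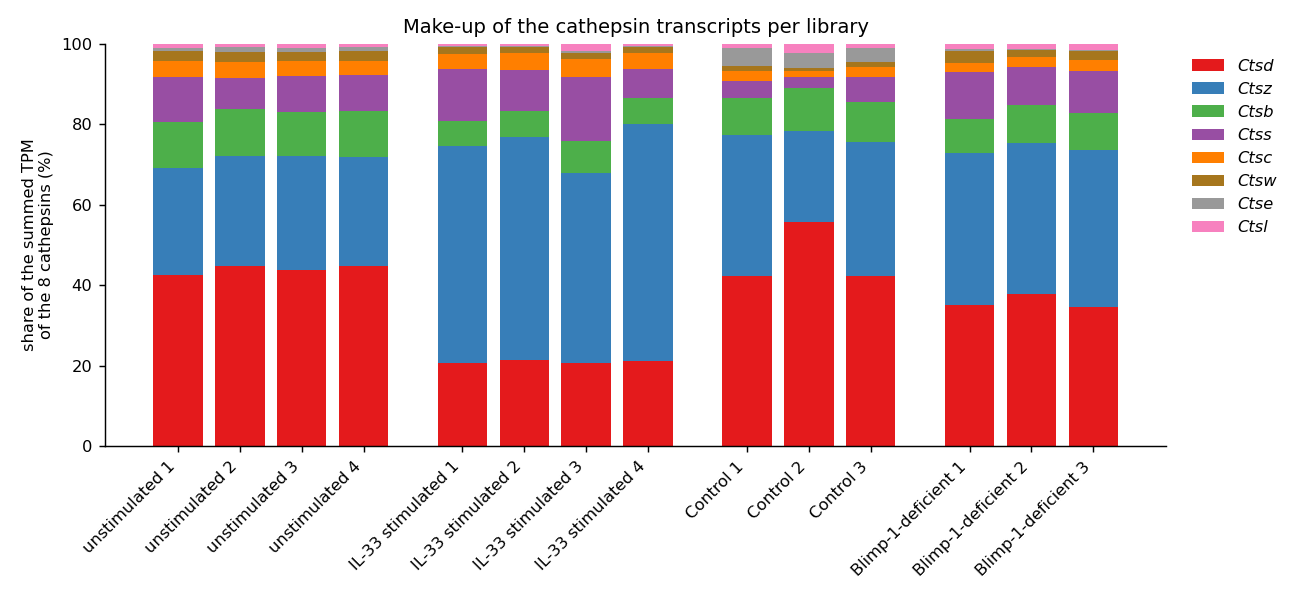
Share of the summed TPM of the 8 cathepsins (vertical axis, %) taken by each gene, with 1 stacked bar per library and replicate numbers along the horizontal axis. Ctsd is the largest share in all unstimulated and Control libraries, and Ctsz in all IL-33 stimulated and Blimp-1-deficient ones.

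Whether other cathepsins follow Ctse upon Blimp-1 loss was asked of the remaining 7 genes. With all 6 libraries edgeR called 0 of the 7 higher and 0 lower, where 0.756% of the 17335 genes tested were called, 0.45% higher and 0.306% lower. At an unadjusted p below 0.05 there were 3 genes, Ctss and Ctsw higher and Ctsd lower, where 11.9% of all genes were below it. DESeq2 called the same 3 genes with all 6 libraries, where it called 3.24% of genes higher and 3.2% lower, and limma on TPM, which called 0.0143% of genes, called none of the 7. With Control replicate 2 left out, edgeR called these 3, 2 higher and 1 lower, where 14% of 17968 genes were called, 8.25% higher and 5.72% lower. Groups that did not overlap were found for 3 of the 7 with all libraries, 2 higher and 1 lower, and for 22.6% of all genes. With that Control left out they were found for 5 of the 7, 3 higher and 2 lower, and for 50.1% of all genes, 25.3% higher and 24.8% lower. That count of 2 higher and 1 lower was the same there with RLE size factors, library size alone, DESeq2 and limma on TPM, which called 13.8%, 13.5%, 19.6% and 11.5% of genes. None of the 7 fell by an amount near that of Ctse.

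Ctsd, the other aspartic protease, stood at 507, 502 and 522 CPM in the Controls and at 366, 438 and 417 CPM in the Blimp-1-deficient libraries. All Blimp-1-deficient libraries were below all Controls, as for 10.8% of all genes tested. The log2 fold change was -0.33 (SE 0.11, edgeR adjusted p = 0.324) with all libraries. It was again -0.33 without Control replicate 2 (SE 0.08, edgeR adjusted p = 0.0428).

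Ctss went the other way from Ctse. It was measured at 29.1, 14.4 and 43.3 CPM in the Controls and at 70.6, 64.4 and 73.2 CPM in the Blimp-1-deficient libraries. The groups did not overlap, as for 11.8% of genes in that direction, and Control replicate 2 rested on 59 counts. The log2 fold change was 1.21 (SE 0.34, edgeR adjusted p = 0.218) with all libraries and 0.95 (SE 0.15, edgeR adjusted p = 0.0101) without Control replicate 2. The macrophage, monocyte and dendritic cell list summed to 38.1, 111 and 150 CPM in the Controls and 39.2, 104 and 135 CPM in the Blimp-1-deficient libraries, so the sums covered the same range. In the fit without Control replicate 2, 4 of its 13 genes were higher in Blimp-1-deficient libraries, Adgre1, C1qa, C1qb and C1qc, where 8.25% of all genes were. Control replicate 2, the lowest library for Ctss, went the other way for the C1q genes, with 9.74, 8.04 and 4.14 CPM of C1qa, C1qb and C1qc against at most 2.06, 1.11 and 1.06 CPM in the Blimp-1-deficient libraries. The part of such cells in the Ctss difference was not tested.

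Ctsw was also higher, with 7.38, 4.14 and 7.37 CPM in the Controls and 16.2, 10.6 and 14.6 CPM in the Blimp-1-deficient libraries. The groups did not overlap, and the 4.14 CPM of Control replicate 2 came from 17 counts. The log2 fold change was 1.08 (SE 0.26, edgeR adjusted p = 0.160), and 0.91 (SE 0.18, edgeR adjusted p = 0.0189) without Control replicate 2. T cell genes summed to 23.8 to 27.8 CPM in Controls against 25.5 to 29.6 CPM in Blimp-1-deficient libraries, and NK cell and ILC1 genes to 5.05 to 6.33 CPM against 2.18 to 8.40 CPM. The highest NK and ILC1 sum and the highest Ctsw were both in Blimp-1-deficient replicate 1, but in replicates 2 and 3 the sums, 2.18 and 2.44 CPM, were below every Control while Ctsw was above every Control. Of 5 NK cell and ILC1 genes 4 were tested, and edgeR called 1, Eomes, lower in the Blimp-1-deficient libraries. This held with all libraries, where 0.306% of genes were lower, and without Control replicate 2, where 5.72% were. Ncr1 went the other way, at 0.245 to 2.07 CPM in Blimp-1-deficient libraries against 0 to 0.217 CPM in the Controls. DESeq2 without Control replicate 2 called 1 of the 4 higher and 1 lower, where it called 19.6% of genes. With all 6 libraries, library size alone called 1 higher and 0 lower, beside 98 and 73 of all genes. The part of such cells in Ctsw was not tested.

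The other 4 genes were not called in either fit. Ctsb was at 289, 246 and 315 CPM in Controls against 223, 277 and 285 CPM with Blimp-1 deleted, with a log2 fold change of -0.12 (SE 0.15, edgeR adjusted p = 0.824), and of -0.20 without Control replicate 2 (edgeR adjusted p = 0.253). Ctsc was at 71.9, 33.4 and 79.8 CPM against 59.1, 70.0 and 77.1 CPM, a log2 fold change of 0.13 (SE 0.30, edgeR adjusted p = 0.923) that became -0.13 without Control replicate 2. Control replicate 2, the lowest value of Ctsc, was also the lowest of Ctsz. Ctsz was at 256, 124 and 252 CPM against 241, 269 and 287 CPM, with a log2 fold change of 0.33 (SE 0.28, edgeR adjusted p = 0.718), and 0.07 (SE 0.08) without that library. Ctsl was at 33.3, 56.0 and 36.1 CPM against 38.5, 38.7 and 50.2 CPM, with a log2 fold change of 0.05 (SE 0.22, edgeR adjusted p = 0.971). Leaving out Control replicate 2 gave 0.30 (SE 0.12, edgeR adjusted p = 0.138).

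**Figure D4:**
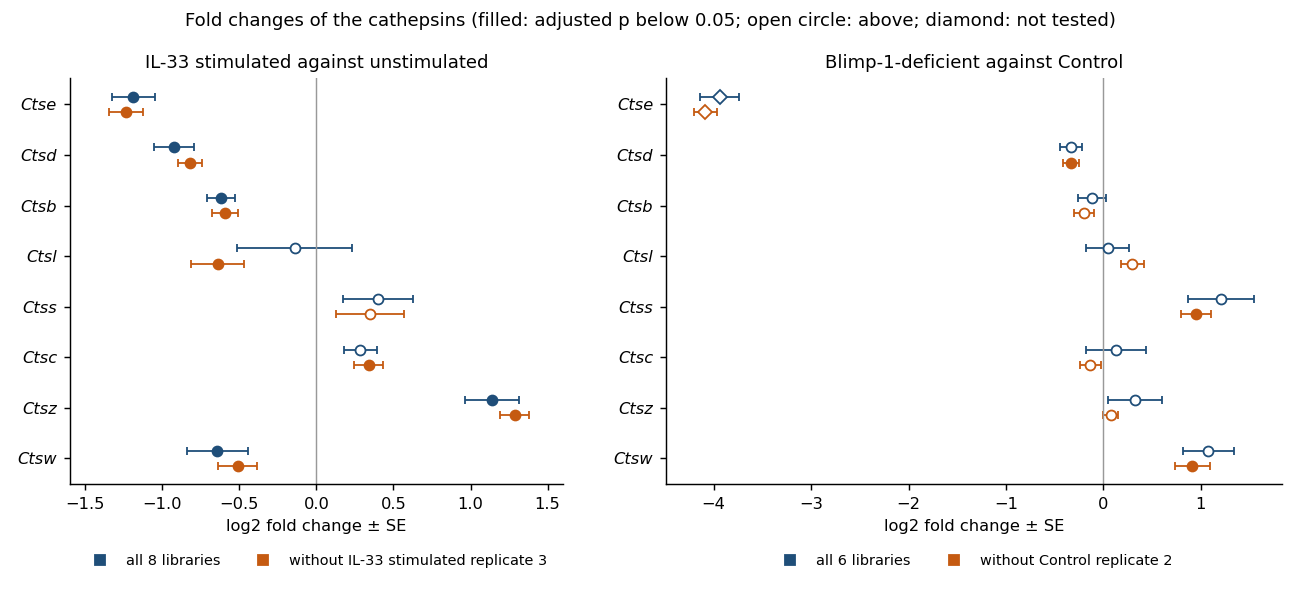
Log2 fold changes (horizontal axes) with their SE for IL-33 stimulated against unstimulated (left) and Blimp-1-deficient against Control (right); blue uses all libraries and orange leaves out the library named under the panel, filled points have an adjusted p below 0.05 and diamonds were not tested. Ctse lies near -4 on the right, and the other 7 genes lie between -0.33 and 1.21.

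On TPM, the Controls other than replicate 2 and the Blimp-1-deficient libraries differed in order as well. In these 2 Controls Ctsd led with 838 ± 42.2 TPM (SD, n = 2) and Ctsz followed with 674 ± 12.4 TPM. In Blimp-1-deficient libraries Ctsz and Ctsd had overlapping ranges, at 739 ± 32.99 and 694 ± 29.0 TPM (SD, n = 3), with Ctsz the higher within each of the 3 libraries. Ctss was at 103 ± 31.4 TPM in the Controls, overlapping Ctse at 78.7 ± 11.1 TPM, and at 206 ± 19.5 TPM in Blimp-1-deficient libraries. Within each library, Ctse took place 4 or 5 of the 8 in the Controls, with 3.46% to 4.54% of their summed TPM, and last in every Blimp-1-deficient library, with 0.223% to 0.282%.

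The other cathepsins of the genome were read in the same fits. Of 15 further cathepsin genes in the tables, 5 passed the filter on low counts, of which 0 rose and 2 fell after IL-33, where 16.2% of all genes rose and 16.1% fell. Ctso, a ubiquitous cysteine cathepsin, fell after IL-33 from 31.5 ± 2.36 to 13.98 ± 0.731 CPM (SD, n = 4 and 4; log2 fold change -1.17, edgeR adjusted p = 0.000102). Ctsa, the serine carboxypeptidase that protects lysosomal sialidase and galactosidase, fell from 109 ± 9.77 to 77.1 ± 5.82 CPM (edgeR adjusted p = 0.00311). Ctsf, Ctsh and Ctsk were at 1.48 to 7.49 CPM on average and were not called. In the Blimp-1 experiment 0 of the 5 were called by edgeR with all libraries, 1 having an unadjusted p below 0.05 and DESeq2 calling 1, where 0.756% of all genes were called, 11.9% had such a p, and DESeq2 called 3.24% higher and 3.2% lower. Ctso was higher without Control replicate 2 (log2 fold change 0.35, edgeR adjusted p = 0.0290). Ctsg had at most 2 counts in any library, and the 9 genes Cts3, Cts6, Cts7, Cts8, Ctsj, Ctsll3, Ctsm, Ctsq and Ctsr at most 4.

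Among other aspartic proteases, 3 of 6 were tested and 1 fell after IL-33, where 16.1% of all genes did. This was Bace2, a membrane-bound relative, which went from 56.5 ± 4.83 to 9.68 ± 2.39 CPM (SD, n = 4 and 4; log2 fold change -2.54, edgeR adjusted p = 5.69e-05). In the Blimp-1 experiment it was at 12.1 ± 0.863 and 8.28 ± 1.80 CPM (SD, n = 3 and 3; edgeR adjusted p = 0.308).

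Genes for cathepsin inhibitors were called in both directions after IL-33, the count rising being near the share over all genes. Of 10 genes 6 were tested, 1 rising and 2 falling, beside 16.2% and 16.1% of all genes. Without stimulated replicate 3, 7 were tested, 2 rising and 3 falling, beside 27.5% and 29.7%. The median log2 fold change was 0.09 with all libraries and -0.31 without that one. With all libraries, limma on TPM called 0 of 5 higher and 3 lower, beside 6.8% and 30.7%. Serpinb1a, an inhibitor of neutrophil-type serine proteases and of cathepsin G, fell from 240 ± 28.0 to 86.1 ± 4.17 CPM (log2 fold change -1.48, edgeR adjusted p = 2.74e-05). Cst7, the lysosomal cystatin F that inhibits cathepsin C among others, fell from 86.2 ± 2.17 to 31.7 ± 8.16 CPM (log2 fold change -1.44, edgeR adjusted p = 0.000605). Serpina3g, a serpin that inhibits cysteine cathepsins, rose from 29.99 ± 2.82 to 61.3 ± 23.6 CPM (log2 fold change 1.03, edgeR adjusted p = 0.0271), though on log2(TPM + 1) limma gave 0.59 and an adjusted p of 0.17. In the Blimp-1 experiment edgeR called 0 of 6 with all libraries (0.756% of all genes), where 3 had an unadjusted p below 0.05 (11.9% of all genes) and DESeq2 called 2 higher (3.24% of all genes). In the fit without Control replicate 2, Serpinb1a was higher (log2 fold change 0.74, edgeR adjusted p = 0.0201) and Cst7 lower (-0.47, edgeR adjusted p = 0.0113), where 8.25% of all genes were higher and 5.72% lower.

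The lysosomal genes around the cathepsins fell more often than they rose after IL-33. Of 37 genes for lysosomal enzymes and membrane proteins, all tested, 3 rose and 17 fell, where 16.2% of all genes rose and 16.1% fell, and the median log2 fold change was -0.23 against 0.06 over all genes. Without stimulated replicate 3, 7 rose and 21 fell, where 27.5% and 29.7% of all genes did. With library size alone 3 rose and 23 fell, beside 11.7% and 23.9% of all genes, and with limma on TPM 1 rose and 23 fell, beside 6.8% and 30.7%. Arsb, a sulfatase of glycosaminoglycans, fell from 27.1 ± 1.71 to 8.42 ± 2.97 CPM (log2 fold change -1.69, edgeR adjusted p = 0.00112). Psap, the precursor of the saposins that assist sphingolipid breakdown, fell from 743 ± 65.5 to 314 ± 27.9 CPM (log2 fold change -1.24, edgeR adjusted p = 6.82e-05). Gm2a, the activator of ganglioside breakdown, fell by 0.97 on the log2 scale (edgeR adjusted p = 0.00145). Neu1, the lysosomal sialidase, rose from 24.1 ± 1.28 to 46.2 ± 12.3 CPM (log2 fold change 0.94, edgeR adjusted p = 0.00761).

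**Figure D5:**
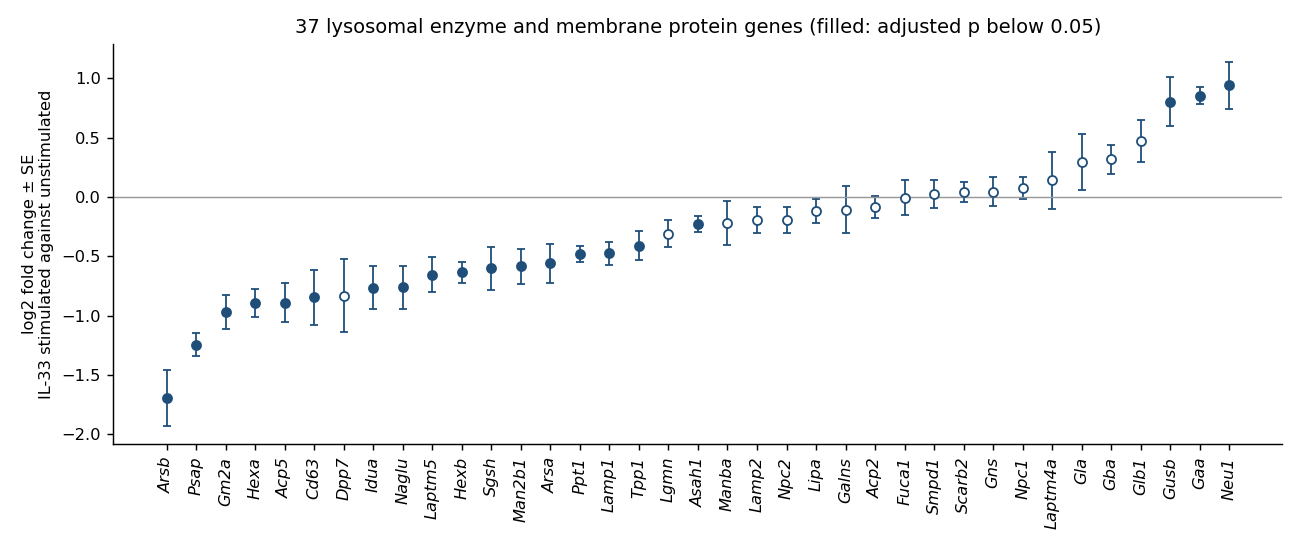
Log2 fold change with its SE (vertical axis) for each of 37 lysosomal genes, IL-33 stimulated against unstimulated with all 8 libraries, ordered by value; filled points have an adjusted p below 0.05. The range runs from Arsb at -1.69 to Neu1 at 0.94, with 17 filled points below 0 and 3 above.

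Of 10 genes that sort lysosomal enzymes or control lysosomal transcription, 3 rose and 1 fell, beside the same 16.2% and 16.1%. Without stimulated replicate 3, 5 rose and 3 fell, beside 27.5% and 29.7% of all genes. With all libraries, library size alone gave 1 and 3, beside 11.7% and 23.9% of all genes, and limma on TPM 0 and 3, beside 6.8% and 30.7%. These scales lowered the median of all genes from 0.06 to -0.10 and -0.25, and relative to it the median of the list was 0.064, 0.062 and 0.009. Tfeb, a master regulator of lysosomal genes, was at 24.5, 25.0, 22.9 and 23.7 CPM before and 8.12, 8.88, 4.83 and 9.59 CPM after IL-33. The groups were far apart, with a log2 fold change of -1.61 (SE 0.21, edgeR adjusted p = 0.000797). M6pr, the cation-dependent mannose 6-phosphate receptor, rose by 0.50 on the log2 scale (edgeR adjusted p = 0.0161). Tfe3, a relative of Tfeb, and Gnptab, which makes the mannose 6-phosphate tag, rose by 0.31 and 0.27, but on log2(TPM + 1) their values were -0.02 and -0.06, which is 0.23 and 0.19 above the median of all genes on that scale. Of 5 class II antigen processing genes, Cd74, the invariant chain that cathepsin S cleaves, rose from 12.2 ± 7.48 to 37.8 ± 6.82 CPM (SD, n = 4 and 4; log2 fold change 1.63, edgeR adjusted p = 0.0126).

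The same lists were read in the Blimp-1 experiment. With all libraries edgeR called 0 of the 37 lysosomal genes, 0 of the 10 sorting genes and 0 of the 5 class II genes, where it called 0.756% of all genes. Of these, 7, 3 and 1 had an unadjusted p below 0.05, and DESeq2 called 3 higher, 1 lower and 0, where 11.9% of all genes had such a p and DESeq2 called 3.24% higher and 3.2% lower. Without Control replicate 2, 5 of the 37 were higher and 2 lower, where 8.25% of all genes were higher and 5.72% lower, so the count of lower genes was near the share over all genes. Psap was higher there by 0.66 on the log2 scale (edgeR adjusted p = 0.0120) and Naglu, a glycosaminoglycan hydrolase, by 0.46 (edgeR adjusted p = 0.0136). Arsb fell by 0.53 (edgeR adjusted p = 0.0271) and Lgmn, the asparaginyl endopeptidase that processes cathepsins, by 0.42 (edgeR adjusted p = 0.0139). Gnptab fell by 0.48 (edgeR adjusted p = 0.00574). Cd74 was higher by 2.25 (SE 0.53, edgeR adjusted p = 0.0347), with 46.5, 32.7 and 12.2 CPM in the Blimp-1-deficient libraries against 7.73 and 5.22 CPM. Control replicate 2 was at 18.5 CPM, so that the groups overlapped with all libraries, and the value was then 1.67 (SE 0.63, edgeR adjusted p = 0.370).

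The genes whose log2 CPM, centred within each experiment, ran most like that of Ctse over the 14 libraries were Camk1d (r = 0.94), Nceh1 (0.92), Prdm1 (0.92), Maob (0.92) and Acss2 (0.91), out of 9851 genes. Camk1d is a calmodulin-dependent kinase, Nceh1 a cholesterol ester hydrolase, Maob a monoamine oxidase and Acss2 an acetyl-CoA synthetase. The likeness includes the contrast that chose Ctse and is a description across libraries that differ in depth and culture. Without the 2 libraries that stood apart, 1 of these 5, Nceh1, was again among the 5 most alike. Of the other cathepsins, Ctsd (r = 0.54) and Ctsb (0.43) ran most like Ctse, Ctsl was near 0 (0.04), and Ctsz (-0.47), Ctsw (-0.50) and Ctss (-0.75) ran against it. Without the 2 libraries these were 0.61, 0.52, -0.013, -0.36, -0.53 and -0.79, and Ctsc, at -0.29 with them, was at -0.014.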

How the data were processed

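RNA of 14 libraries of sorted lung ILC2s was sequenced with SMART-seq v4 and Nextera XT by the authors. By the study's methods, reads were trimmed with cutadapt, aligned to GRCm38 with HISAT2 and counted per gene with Subread; the submitters' processing notes list Bowtie2, Subread, DESeq2 and mm10. The deposited raw counts are whole numbers per gene, not normalised. The deposited TPM were computed by the authors and, for the cathepsins read here, follow the gene length given with the counts. Each experiment has its own pair of tables.

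Here, each experiment was fitted over all genes with edgeR 4.0.16 (filterByExpr, TMM, quasi-likelihood F test, Benjamini-Hochberg, adjusted p below 0.05) in R 4.3.3, on its own groups without a block; CPM are TMM-normalised within all libraries of an experiment, while fits without a library were normalised anew. Alternatives were DESeq2 1.42.0, RLE, library size alone, other filters, limma 3.58.1 on log2(TPM + 1) and log2(TPM + 0.1), a replicate block and leaving out each library. Totals ran from 10470125 to 76448945 counts. The fits were tested on simulated data whose spread was set below that of the real libraries, so their recovery at the real spread was not tested. Exon overlaps were taken from GENCODE M21; its exon length matched the deposited length for 7 of the 8 genes, Ctsw (1887 against 1232 bases) being the exception. Floors of 3 counts cover counting error only, whereas printed ranges run over libraries.

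The members, gene lists and tests were chosen with earlier results of these data known. Named were the 8 members, every other detected cathepsin, up to 4 genes per list with the largest change past the threshold and a mean of at least 5 CPM, Prdm1 and the 5 genes most like Ctse.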

Additional observations from a re-analysis of the deposited data

Results flagged for a closer look

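Ctsl in IL-33 stimulated replicate 3, at 37.7 CPM, lay far from the other 3 stimulated libraries, which were at 12.4, 14.6 and 15.1 CPM. The gap to the nearest of them was 0.896 of the whole range. In all, 16 sets of 4 libraries were examined this way, and chance singles out about 1 in 20. In the same library, Sort1, a sorting receptor of lysosomal proteins, was at 105 CPM and Cst3, a secreted cystatin, at 313 CPM, against at most 7.06 and 114 CPM in the other stimulated libraries; both were picked after their values were seen.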

How the results depend on the processing

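For IL-33, 17 alternatives were run per gene, and Ctse, Ctsb, Ctsd and Ctsz kept their direction and their call in all of them. With DESeq2 the cathepsins called were 2 higher, Ctsc being added, and 4 lower, beside 15.2% and 13.7% of all genes. Ctsc was also called with a mean count of at least 50 (edgeR adjusted p = 0.0449) and without unstimulated replicate 1 (edgeR adjusted p = 0.00203). Without stimulated replicate 3, 2 were higher and 5 lower, Ctsc and Ctsl being added, beside 27.5% and 29.7% of all genes. Ctsw lost its call in 9 of the 17, with edgeR adjusted p = 0.109 without a filter and 0.0608 with a replicate block. The Ctsc value turned to -0.040 with limma on log2(TPM + 1), with or without a filter, and to -0.041 with a pseudocount of 0.1. The Ctsl value ran from -0.64 without stimulated replicate 3 to 0.072 without unstimulated replicate 1. The cause was not tested.

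For Blimp-1, 15 alternatives were run. The other cathepsins called were 2 higher and 1 lower with DESeq2, beside 3.24% and 3.2% of all genes. They were again 2 higher and 1 lower without Control replicate 2, beside 8.25% and 5.72% of all genes. Leaving out any other single library gave each of the 7 an edgeR adjusted p of 0.187 or more. The Ctse value was -3.55 with library size alone, -2.10 with limma on log2(TPM + 1), with or without a filter, and -2.12 with a pseudocount of 0.1. Those scales take in the 7 loci of Control replicate 2 and put the median of all genes at 0.45 with library size alone, at 1.28 on log2(TPM + 1) with a filter and 0.34 without one, and at 1.69 with a pseudocount of 0.1. Ctsb turned to 0.31 and Ctsd to 0.15 with library size alone, which is -0.14 and -0.29 relative to the median there. On log2(TPM + 1), with or without a filter, Ctsb was 1.57 and Ctsd 1.43, and with a pseudocount of 0.1 they were 1.66 and 1.45. When 1 library was left out, Ctsl ran from -0.094 without Blimp-1-deficient replicate 3 to 0.30 without Control replicate 2, and Ctsc from -0.13 without Control replicate 2 to 0.35 without Control replicate 3. The cause was not tested.

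Not every same-numbered pair deviated together, so the numbers were not taken as pairs. For IL-33 the correlation was -0.14 for number 1 and 0.22, 0.28 and 0.18 for numbers 2, 3 and 4, and for Blimp-1 it was -0.13, -0.13 and 0.12. Stimulated replicates 2, 3 and 4 correlated best with their own number, and replicate 1 with unstimulated replicate 4 (0.26). Of the unstimulated libraries, replicates 2 and 3 did so and replicates 1 and 4 did not. Among the Blimp-1-deficient libraries only replicate 3 correlated best with its own number. With the replicate block the cathepsins called were 1 higher and 3 lower after IL-33, and 0 of the other 7 between genotypes. The share of all genes called with that block is not given here, so these counts cannot be set against it. The depth of Control replicate 2 limits Ctsw and Ctss most, at 17 and 59 counts.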
